A study of Rattus norvegicus with 12 samples.

Results

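The cytosolic ribosomal protein genes were taken from the deposited count table by name. Rows named Rpl or Rps with a number and at most 1 closing letter a, x or y were kept, together with Rplp0, Rplp1, Rplp2 and Rpsa. The rule gave 95 of the 30560 rows and 68 symbols, with 60 rows of the large subunit (39 symbols) and 35 rows of the small subunit (29 symbols). For 16 symbols the table held several rows of 1 name. A row could be tested where its counts passed a filter on low values, which left 75 of the 95 rows, 43 large and 32 small. The 20 rows left out were all further rows of a symbol, and no further row had more than 22 counts in any library.

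A cytosolic ribosome joins a large subunit, which forms peptide bonds and holds the exit tunnel for the new protein, to a small subunit, which threads the mRNA and decodes it. Each of its proteins is made in the cytosol from a nuclear gene, and mitochondria use a separate set of ribosomal proteins for their own mRNAs. Messages of the cytosolic set are known for a run of pyrimidines (C or T in the DNA) that begins at the transcription start, the terminal oligopyrimidine or TOP motif, through which growth signals control their translation together.

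The start windows of the 4 members that the rule takes by full name, and of 2 of the most reduced ones, show the run at the annotated start. The RefSeq promoter table of build GRCr8 held 55 windows for 54 of the 68 symbols. Each window below gives the 15 bases before the start and 15 from the start on, 5′ to 3′ on the gene's strand, with the pyrimidine run that begins at the start in capitals.
Rplp0: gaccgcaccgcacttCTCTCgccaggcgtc
Rplp1: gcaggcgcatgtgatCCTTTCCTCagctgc
Rplp2: cctttcgccgccggaCgccgccgaggtcgc
Rpsa: cctttccgcgctaccCTggaacgggtccgt
Rps4x: tccagcgcgcgcagcCTCCgaccctaattt
Rpl19: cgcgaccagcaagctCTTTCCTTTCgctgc
In GRCr8 these lie at chr12:46718376-46718405 (Rplp0, minus strand), chr8:71290858-71290887 (Rplp1, minus), chr1:205975906-205975935 (Rplp2, plus), chr8:128728864-128728893 (Rpsa, plus), chrX:71342907-71342936 (Rps4x, minus) and chr10:83519049-83519078 (Rpl19, plus). The counts were made on another build, mRatBN7.2, so these positions do not apply to it. The run was 10 bases long in Rpl19 and 9 in Rplp1, but 1 base in Rplp2 and 2 in Rpsa. The placement of the annotated starts was not checked, so a short run cannot be told from a start annotated at another base.

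RNA was sequenced from mitochondria of the skeletal muscle of 1 wild-type male Wistar Kyoto rat aged 14 weeks. The sources give the muscle as hindlimb or gastrocnemius, and aliquots of 1 pooled homogenate were used. In crude_RNase mitochondria were pelleted by differential centrifugation. In IP_RNase they were captured on magnetic beads by immunoprecipitation, in IP_RNase_ProK the captured mitochondria were also given proteinase K, and in mitoplast_RNase mitoplasts, mitochondria stripped of the outer membrane, were made from captured ones. All 4 groups, with 3 libraries each, received RNase A, DNase I on the column and ribosomal RNA depletion, and no group lacked RNase. The source label of the crude libraries names immunoprecipitation, while their titles and the series design name crude mitochondria. Titles and design were used. Libraries were made from 6.3 ng of RNA in crude_RNase and 40 ng in the other groups, so preparation and input amount cannot be told apart. With 1 homogenate, every p-value measures only the spread between these libraries, which may be technical.

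The crude libraries held 6583452 to 7123045 counts each and the other 9 held 3325430 to 4563254. The mitochondrial chromosome took 41.2% to 54.0% of the counts in crude_RNase and 2.06% to 10.9% in the others. The olfactory receptor genes, best known from the nose though some are described in other tissues, muscle among them, took 0.633% to 0.74% and 1.49% to 1.74%. The median olfactory receptor row had 30 to 34 counts in crude_RNase and 37 to 49 in the others. The median ribosomal protein row that passed below had 206.5 to 260.5 and 63.5 to 97.5, so in the other groups these rows were counted closer to that level, and its part in the sizes of the fold changes was not tested.

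Bead-captured mitochondria were compared with centrifuged ones to see how purification changes the RNA that is counted. Ribosomal protein messages were lower after capture, at a median of 3.22-fold over the tested rows. Of 75 rows, 66 fell from crude_RNase to IP_RNase, 0 rose and 9 did not pass (edgeR quasi-likelihood test, Benjamini-Hochberg adjustment), where 5.09% of all 26483 genes tested were called lower. Among them were 37 of 43 large subunit rows and 29 of 32 small subunit rows. Each of these 66 rows had at least 20 counts in each library. The median log2 fold change was -1.69 over the tested rows, against 0.01 over all genes, and it ranged from -3.91 to 0.70. The median was below 0 also by library size (-0.65) and on olfactory receptor genes (-1.90), and turned to 2.14, with 0 rows lower, once scaled to equal mitochondrial mRNA counts.

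The proteins of the P stalk, the arm that recruits and triggers the elongation factor GTPases, were among the most reduced. Rplp0, the stalk base protein (ENSRNOG00000001148), had 172, 184 and 190 CPM in the crude libraries (counts per 1e+06 of the scaled library size) and 19.6, 20.7 and 21.8 in IP_RNase. It had 19.1, 20.4 and 22.6 CPM after proteinase K and 24.2, 22 and 20.6 in the mitoplasts. All 3 crude libraries stood far above the other 9, which overlapped each other, and the change to IP_RNase was -3.14 ± 0.09 (log2, SE; adjusted p = 9.1e-34 by edgeR).

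Rplp1 (ENSRNOG00000013874) and Rplp2 (ENSRNOG00000068445) pair up into the flexible tips of the stalk. Rplp1 had 70.4, 72.0 and 61.4 CPM in the crude libraries and 11.7, 12.7 and 11.5 in IP_RNase, with 18.1, 14.0 and 13 after proteinase K and 13.6, 10.4 and 12.0 in the mitoplasts. Rplp2 had 76.3, 107 and 81.3 CPM in the crude libraries and 8.86, 11.9 and 12.1 in IP_RNase, with 11.4, 13.5 and 11.3 after proteinase K and 14.6, 10.8 and 10.5 in the mitoplasts. The crude libraries did not overlap the others for either gene. Their log2 fold changes to IP_RNase were -2.51 ± 0.13 and -3.00 ± 0.14 (edgeR adjusted p = 8.6e-23 and 4e-25). Rpl12, which sits beside the stalk base, fell less, at -1.70 ± 0.12.

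**Figure D1:**
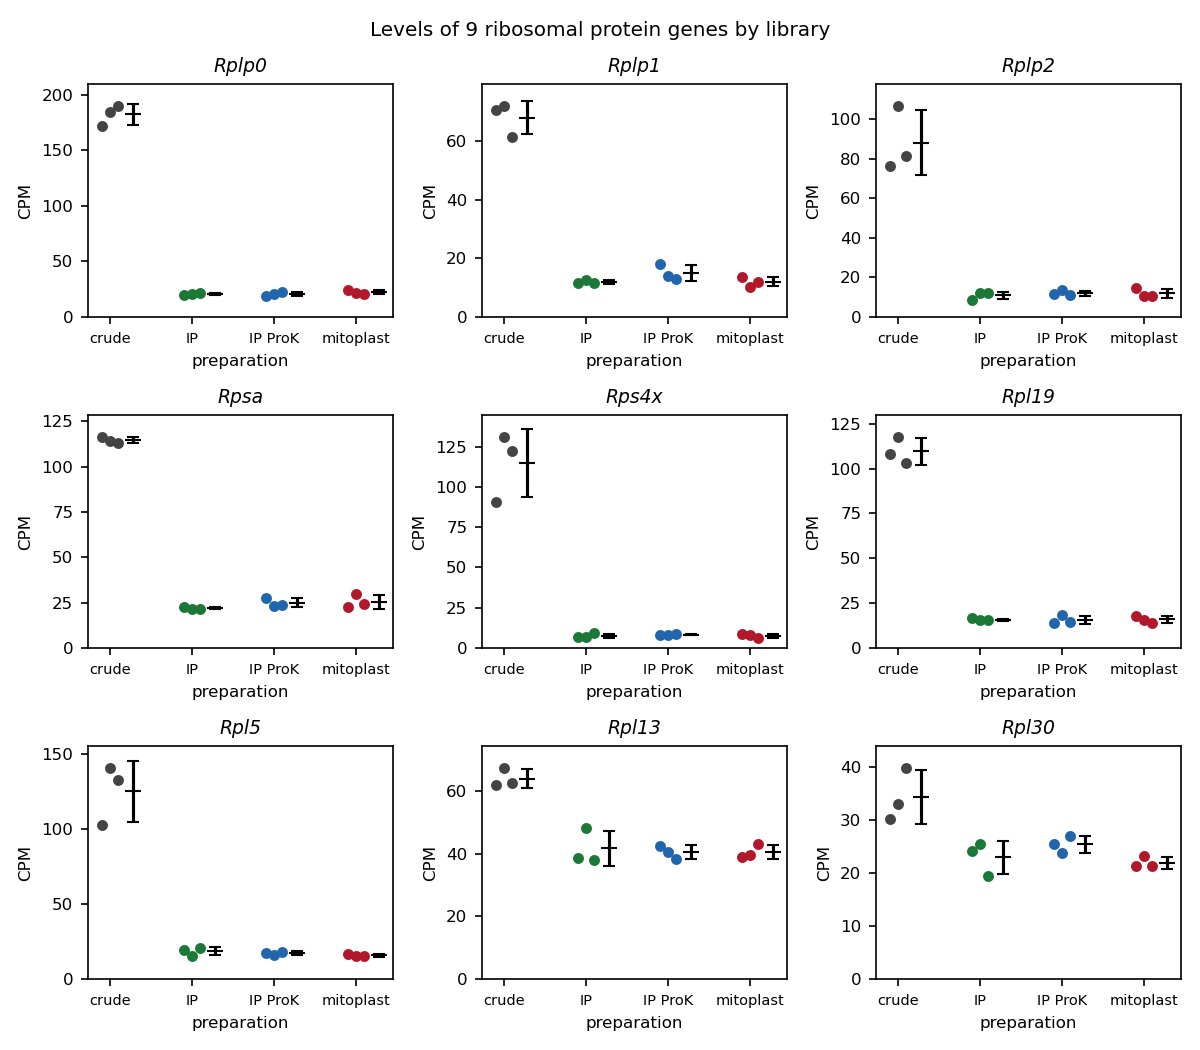
CPM (vertical axes, from 0) of 9 ribosomal protein genes in each of the 3 libraries of the 4 preparations (points), with the mean and SD beside them. Rplp0 stood at 172 to 190 CPM in the crude libraries and at 24.2 or less in the others, whereas Rpl30, the least reduced of the rows that passed, stood at 30.1 to 39.8 CPM and at 19.5 to 26.9 CPM.

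Rpl5 and Rpl11 bind the 5S rRNA and, outside the ribosome, restrain the ubiquitin ligase Mdm2. Rpl5 (ENSRNOG00000023529) had 102, 141 and 133 CPM in the crude libraries and 19.6, 15.7 and 20.4 in IP_RNase, with 17.7, 16.0 and 18.2 after proteinase K and 16.7, 15.3 and 15.3 in the mitoplasts. Every crude library was above the other 9. Its log2 fold change to IP_RNase was -2.74 ± 0.11 (adjusted p = 9.9e-28 by edgeR), beside -1.31 ± 0.11 for Rpl11, a difference between genes that was not tested.

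At the exit tunnel, Rpl4 reaches into the tunnel wall and Rpl19 and Rpl35 lie near its rim. Rpl4 (ENSRNOG00000009378) had 68.9, 110 and 87.7 CPM in the crude libraries and 13.8, 12.7 and 12.8 in IP_RNase, with 15, 12.7 and 12.4 after proteinase K and 13, 10.6 and 14.0 in the mitoplasts. Rpl19 (ENSRNOG00000004741) had 108, 118 and 103 CPM in the crude libraries and 16.6, 15.4 and 15.6 in IP_RNase, with 14.1, 18.2 and 14.7 after proteinase K and 18, 15.9 and 14.0 in the mitoplasts. Again no crude library overlapped another preparation. The log2 fold changes to IP_RNase were -2.75 ± 0.14 for Rpl4 and -2.79 ± 0.11 for Rpl19 (adjusted p = 1.3e-23 and 1.2e-28 by edgeR). Of the 3 tunnel wall proteins taken (Rpl4, Rpl17, Rpl39) all fell, with a median of -1.34. Of the 5 at the rim (Rpl19, Rpl23a, Rpl26, Rpl31, Rpl35) all fell, with a median of -2.07. Since 66 of the 68 most counted rows fell, such counts say nothing of position, and the groups were drawn up with the values known.

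Rpl3, which lies next to the peptidyl transferase centre, and Rpl7a were named for their mean CPM over all 12 libraries, a choice that mixes preparations and gives no rank within one. Rpl3 (ENSRNOG00000016896) had 131, 157 and 135 CPM in the crude libraries and 24.0, 31.6 and 26.6 in IP_RNase, with 25.7, 23.1 and 29.9 after proteinase K and 29.7, 27.7 and 24.7 in the mitoplasts. Rpl7a (ENSRNOG00000070974) had 92.4, 91.6 and 97.8 CPM in the crude libraries and 40.6, 35.8 and 34.1 in IP_RNase, with 31.8, 34.0 and 35.7 after proteinase K and 40.7, 37.5 and 40.5 in the mitoplasts. In both genes all 3 crude libraries were above the other 9. The log2 fold changes to IP_RNase were -2.36 ± 0.10 for Rpl3 and -1.35 ± 0.09 for Rpl7a (adjusted p = 6.4e-27 and 2.8e-18 by edgeR). Levels are not compared between genes, since gene lengths were not used here.

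In the small subunit the largest reduction was that of Rps4x, an X-linked protein of the subunit body. Rps4x (ENSRNOG00000003201) had 90.8, 131 and 122 CPM in the crude libraries and 6.76, 6.72 and 9.16 in IP_RNase, with 8.05, 8.21 and 8.76 after proteinase K and 8.57, 7.86 and 6.35 in the mitoplasts. Its log2 fold change to IP_RNase, -3.91 ± 0.14 (edgeR adjusted p = 5.2e-30), was the lowest of all tested rows. On mitochondrial mRNA scaling it stood at -0.14 and did not pass, the only member named here with values in every library that was below 0 there.

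Rpsa, the protein at the mRNA exit that is also known as the laminin receptor precursor, had 117, 114 and 113 CPM in crude_RNase. Rpsa (ENSRNOG00000018645) stood at 22.6, 21.6 and 21.5 CPM in IP_RNase, 27.9, 23.3 and 23.7 in IP_RNase_ProK and 22.8, 29.9 and 24.1 in mitoplast_RNase, with no overlap with the crude libraries. The log2 fold change to IP_RNase was -2.39 ± 0.10 (adjusted p = 2.4e-27 by edgeR). Of the 3 proteins taken at the mRNA exit (Rpsa, Rps14, Rps28) all fell, with a median of -1.73, as did both at the mRNA entry, Rps2 at -1.14 ± 0.10 and Rps3 at -1.82 ± 0.11. Of 5 proteins taken that touch tRNA or the decoding centre (Rps15, Rps16, Rps18, Rps23, Rps27a) all fell, from -2.69 in Rps15 to -1.28 in Rps18. Rps27a is made as a fusion with ubiquitin and stood at -2.62 ± 0.13. These groups by position were drawn up with the values known and only describe where members lie. Since 66 of the 68 most counted rows fell, a group in which all fell says nothing of its position. Rps6, the substrate of S6 kinase, stood at -2.59 ± 0.10.

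**Figure D2:**
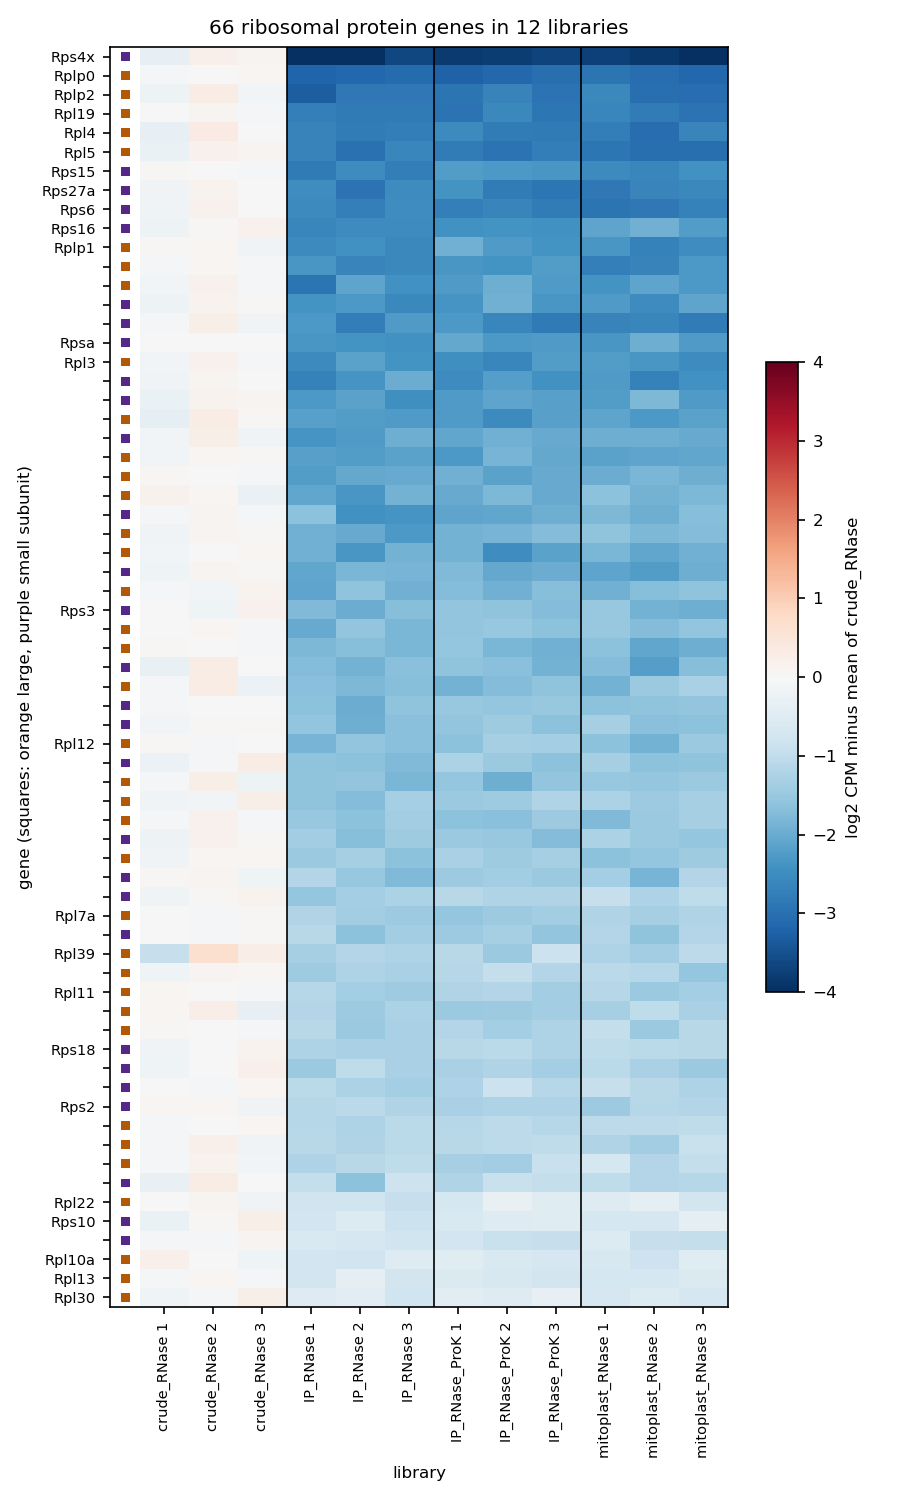
Log2 CPM of the 66 rows that passed from crude_RNase to IP_RNase, each minus its own mean over the 3 crude libraries (colour), in 12 libraries (columns). Rows are ordered by fold change from Rps4x at -3.91 to Rpl30 at -0.57, with an orange square for the large and a purple one for the small subunit, and names for many of the genes described in the text.

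The smallest changes among rows that passed, chosen after their values were seen, were those of Rpl30, Rpl13, Rpl10a, Rps21, Rps10 and Rpl22. Rpl30 had 30.1, 32.9 and 39.8 CPM in crude_RNase and 24.0, 25.4 and 19.5 in IP_RNase, a change of -0.57 ± 0.13 (log2; adjusted p = 0.0015 by edgeR). Rpl13 had 61.9, 67.5 and 62.5 CPM against 38.7, 48.3 and 38.0, at -0.62 ± 0.10. In both genes these 2 preparations did not overlap. Rpl10a, a protein of the L1 stalk through which the spent tRNA leaves, stood at -0.69 ± 0.13, and Rps10, which is ubiquitinated when ribosomes collide, at -0.72 ± 0.13. Over the 75 tested rows, 65 had every crude CPM above all 9 other libraries, where 5.68% of all genes tested had. All 65 were among the 66 that passed. The exception was Rpl39, a small protein of the tunnel wall, whose crude libraries had 6.50, 19.3 and 14.9 CPM and whose mitoplast libraries reached 5.91 and proteinase K libraries 6.84.

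The 9 rows that did not pass were weakly counted. The first was Rpl37, a zinc-binding protein of the large subunit, with 2.69, 3.48 and 4.48 CPM in crude_RNase and 1.87, 1.49 and 0.916 in IP_RNase, at -1.28 ± 0.42 (edgeR adjusted p = 0.0519). Its counts were 12, 13 and 16 against 8, 6 and 4. The crude libraries were the higher ones, without overlap.

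Rpl35a (ENSRNOG00000031641) was the second symbol with no row that passed, with 7, 5 and 12 counts in the crude libraries and 7, 9 and 13 in IP_RNase, at 0.16 ± 0.43 (log2). It held 16, 7 and 8 counts after proteinase K and 7, 7 and 5 in mitoplasts. In CPM the crude libraries (1.34 to 3.36) overlapped every other group, while the mitoplasts, with a highest CPM of 1.46, lay below the other captured libraries. RefSeq lists Rpl35al1 as a synonym of Rpl35a. The table has a separate row of that name (ENSRNOG00000064222), which held 99, 97 and 104 counts in crude_RNase and 86, 82 and 73 in IP_RNase, at -0.43 ± 0.14 (edgeR adjusted p = 0.0608). That row is outside the naming rule and was looked up after the values were seen.

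The other 7 were further rows of symbols whose most counted row fell, among them those of Rpl39, Rps29, Rpl9, Rps6, Rpl22 and Rpl38. The further row of Rps6 (ENSRNOG00000049025) had 22, 15 and 16 counts in crude_RNase and 19, 17 and 15 in IP_RNase, at -0.16 ± 0.31, with 22, 14 and 18 after proteinase K and 12, 19 and 17 in mitoplasts. That of Rpl22 (ENSRNOG00000011104) had 6, 14 and 12 counts against 9, 13 and 12, at -0.03 ± 0.39, with 12, 15 and 13 after proteinase K and 10, 12 and 12 in mitoplasts. In CPM the crude libraries of the Rps6 row (4.02 to 4.93) overlapped those of IP_RNase (3.44 to 4.43) but stood above the other 6, and the Rpl22 row overlapped in all groups. That of Rpl38 (ENSRNOG00000029377) had 8, 6 and 7 counts against 14, 12 and 11, at 0.70 ± 0.40, the highest of the tested rows, and did not pass (edgeR adjusted p = 0.371). After proteinase K it held 11, 12 and 12 counts and in mitoplasts 14, 8 and 11. In this row the IP_RNase libraries were above the crude ones without overlap, at counts below those of the median olfactory receptor row.

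All 66 rows that passed were the most counted row of their symbol, so 66 of the 68 symbols had a row that fell. That split uses the counts themselves and describes only how reads fell among rows of 1 name. Of the 27 further rows 20 had too few counts to be tested. With no filter on low counts 67 of the 95 rows were called lower to IP_RNase, beside 1345 of all genes. RefSeq (GRCr8) lists 951 genes named as numbered pseudogenes or like-copies of the 68 symbols, 759 of them pseudogenes, with a median of 14 per symbol and 36 for Rps2. Reads that match such copies could be split among rows, so each single row is uncertain. Across the 66 genes, the number of copies and the log2 fold change to IP_RNase had a Spearman rho of 0.09, points that share libraries and scaling.

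Captured mitochondria with proteinase K and mitoplasts were compared with the same 3 crude libraries, so the 3 comparisons are not independent. From crude_RNase to IP_RNase_ProK 66 of 75 rows fell and 0 rose, where 5.04% of all genes fell, with a median of -1.54. To mitoplast_RNase 66 of 75 fell and 0 rose, where 4.54% of all genes fell, with a median of -1.53. Rplp0 stood at -3.14, -3.14 and -3.03 in IP_RNase, IP_RNase_ProK and mitoplast_RNase, Rps4x at -3.91, -3.77 and -3.90, and Rpl30 at -0.57, -0.42 and -0.63. Scaled on the mitochondrial mRNAs, the medians of the latter 2 comparisons turned to 3.42 and 3.41, with 75 of 75 rows higher in each, where 99.9% of all genes were called higher.

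**Figure D3:**
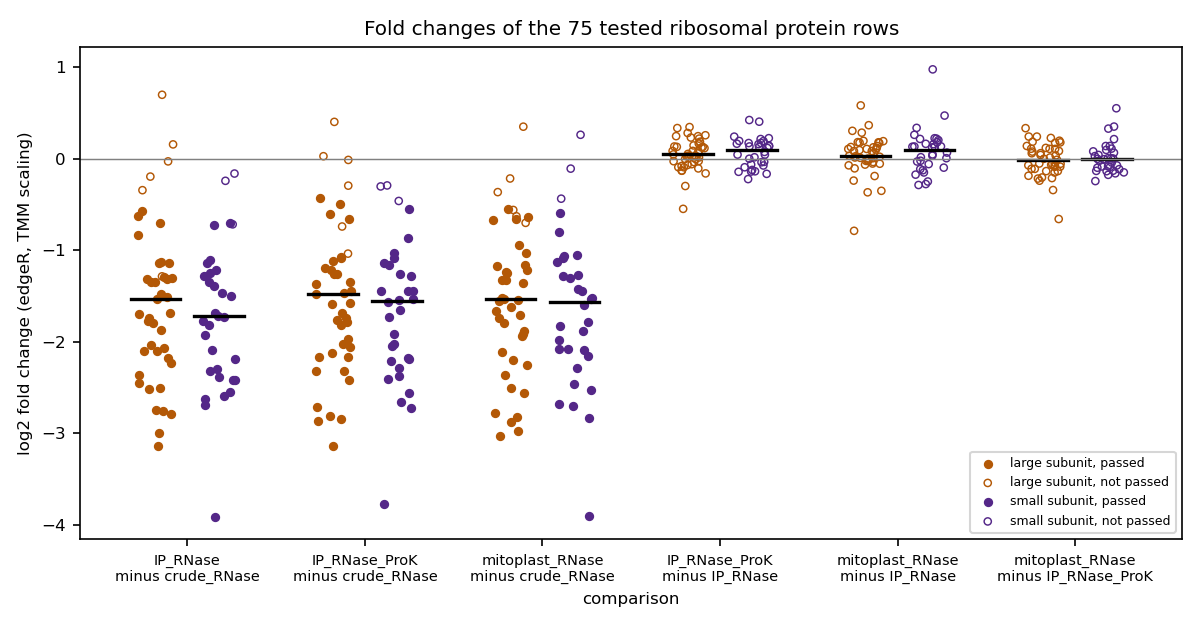
Log2 fold changes (edgeR, TMM scaling) of the 75 tested rows in the 6 comparisons between preparations, by subunit, with filled points for rows past the threshold and black lines for medians. In each comparison with crude_RNase 66 rows are lower, and in the other 3 comparisons 0 rows passed.

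Among the 3 bead-based preparations 0 of 75 rows passed in any comparison by edgeR's quasi-likelihood test. From IP_RNase to IP_RNase_ProK, which adds proteinase K, 0.14% of all genes were called. An unadjusted edgeR p under 0.05 was found for 3 of the 75 rows and for 2346 of all 26483 genes. From IP_RNase to mitoplast_RNase, which removes the outer membrane, 0.155% of all genes were called, and 5 members and 2365 of all genes had such a p. From IP_RNase_ProK to mitoplast_RNase 0% of all genes were called, and 3 members and 741 of all genes had one. DESeq2 called 0 members as well, but gave an adjusted p for 2, 2 and 75 of them. The medians were 0.05, 0.06 and -0.003 on the log2 scale. Scaled on the mitochondrial mRNAs, 72 rows were called higher with proteinase K and 70 in mitoplasts, both against IP_RNase, where 94% and 93.4% of all genes were called higher.

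Rps16, a protein of the small subunit head, had the lowest unadjusted p of the members in these comparisons and is named for that reason. It had 14.2, 15.2 and 15.1 CPM in IP_RNase, 16.3, 16.6 and 16.2 in IP_RNase_ProK and 20.1, 23.2 and 18.4 in mitoplast_RNase, against 75.6, 89.7 and 97.3 in crude_RNase. The 3 bead-based preparations did not overlap for this gene. The log2 fold change from IP_RNase to mitoplast_RNase was 0.47 ± 0.14 (edgeR adjusted p = 0.277). Rpl22, also known to bind a viral RNA, was at 0.34 ± 0.11 with proteinase K and 0.29 ± 0.11 in mitoplasts (edgeR adjusted p = 0.295 and 0.426), 2 values that share the IP_RNase libraries. At the median row counting error alone was 10.1% to 12.5% per library in these groups and 6.20% to 6.96% in crude_RNase, so small differences were not detectable at this depth.

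Across the 66 genes that passed, mean CPM in IP_RNase and in IP_RNase_ProK had a Spearman rho of 0.97, and mean CPM in crude_RNase and in IP_RNase one of 0.47. These points share gene length and depth. The plot of levels shows for each gene how far it lay below its crude level.

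**Figure D4:**
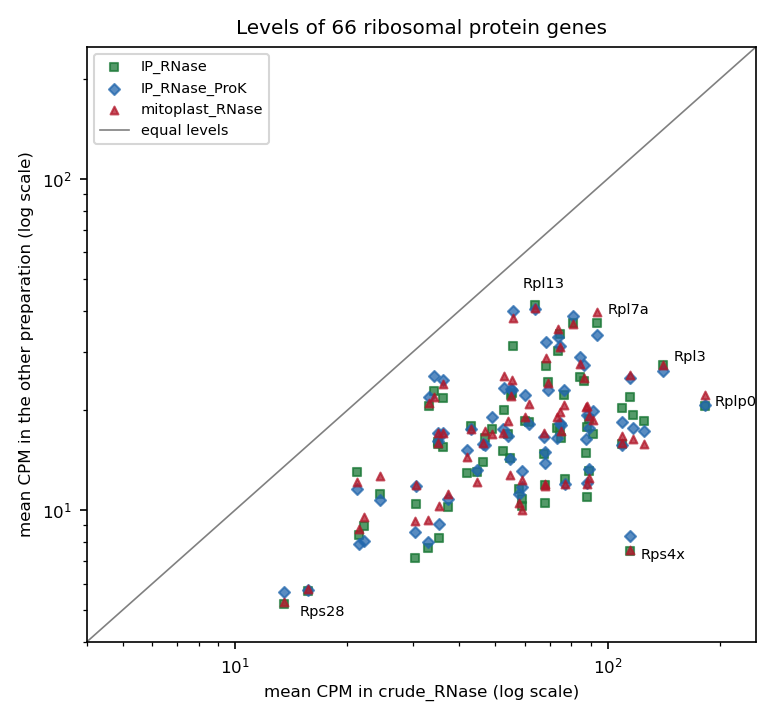
Mean CPM of the 66 genes that passed in crude_RNase (horizontal, log scale) and in each bead-based preparation (vertical, log scale), with a line of equal levels. All points lie below the line, Rps4x farthest from it. For IP_RNase this follows from the choice of genes called lower there, and the other preparations are set against the same crude values. The 9 tested rows that did not pass are not drawn.

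Together the 95 rows took 0.271%, 0.243% and 0.228% of all counts in the crude libraries. They took 0.144%, 0.144% and 0.136% in IP_RNase, 0.155%, 0.155% and 0.152% after proteinase K and 0.155%, 0.148% and 0.154% in the mitoplasts. The group means, in the same order, were 0.247% ± 0.0218, 0.141% ± 0.00481, 0.154% ± 0.00145 and 0.152% ± 0.00403 (SD, n = 3 each). Of nuclear counts alone they were 0.493%, 0.151%, 0.158% and 0.158%. Every crude library was above the other 9 on both measures. Set against the mitochondrial mRNAs the order turned, with 9.77 ± 1.81 ribosomal protein counts per 1000 mitochondrial mRNA counts in the crude libraries and 39.3 ± 16.1 after capture (SD, n = 3 each). With proteinase K the value was 89.3 ± 15.3, and in mitoplasts 88.3 ± 12.1 (SD, n = 3 each). All groups began from the same homogenate, and in bulk RNA less material of a cell type carried into a preparation and less RNA per cell cannot be told apart.

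The direction depended on the scaling, which moves all genes of a library alike. By library size alone 46 of the 75 rows were lower and 9 higher from crude_RNase to IP_RNase, with a median of -0.65, where 0.714% of all genes were called lower and 94.7% higher. On the mitochondrial mRNAs 0 rows were lower and 73 higher, where 99.8% of all genes were called higher. The median of all genes moved to 1.03 and 3.81, so the members can be read only relative to it. Minus that median, the median of the members was -1.68 by library size and -1.68 on the mitochondrial mRNAs, beside -1.69 on TMM scaling.

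**Figure D5:**
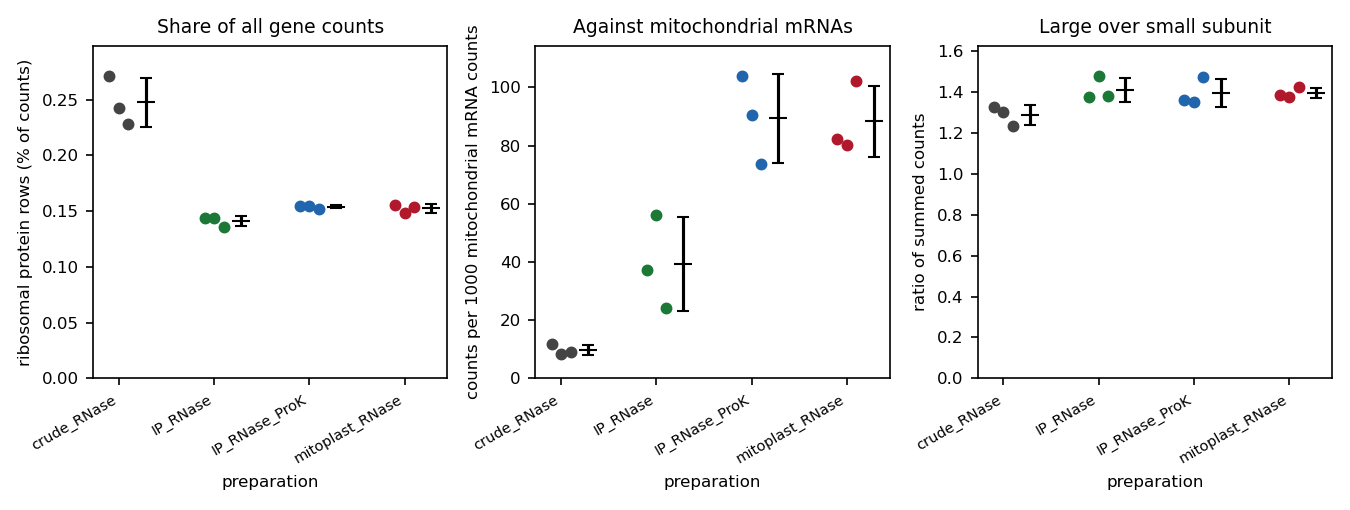
Summed counts of the 95 rows in each library (points, with mean and SD) as a percent of all counts, per 1000 mitochondrial mRNA counts, and as the ratio of large to small subunit counts, with all axes from 0. The crude libraries are highest in the first panel and lowest in the other two.

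Rows of both subunits fell. To IP_RNase, IP_RNase_ProK and mitoplast_RNase the median log2 fold changes of the tested large subunit rows were -1.54, -1.48 and -1.53, and those of the small subunit rows -1.72, -1.55 and -1.57. In the most counted rows they were -1.70, -1.58 and -1.56 in the large and -1.77, -1.65 and -1.78 in the small subunit. No test over the members was made.

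The ratio of large to small subunit counts was 1.33, 1.30 and 1.24 in the crude libraries and 1.38, 1.48 and 1.38 in IP_RNase. It was 1.36, 1.35 and 1.47 after proteinase K and 1.39, 1.38 and 1.43 in the mitoplasts. The crude libraries were the 3 lowest, and the other preparations overlapped. These sums include the weakly counted further rows, which held 187 to 202 counts in the crude libraries and 154 to 197 in the others. All members together held 15451 to 17862 and 4792 to 7065 counts. The ratio was not taken on the most counted rows alone, so the part of the further rows in it was not tested. Intervals for counting error overlapped in some pairs of libraries and not in others. The large subunit share was 57.1% in crude_RNase 1 (exact 95% Clopper-Pearson interval 56.3% to 57.8%, counting error only). It was 57.9% in IP_RNase 1 (56.6% to 59.3%), which overlaps. The lowest share, 55.3% in crude_RNase 3 (54.5% to 56.1%), and the highest, 59.7% in IP_RNase 2 (58.3% to 61.1%), did not overlap. Leaving out each of the 95 rows in turn, a check added after the values were seen, the crude libraries stayed below the other 9 in 85 cases and overlapped them in 10. The 10 rows were those of Rpl8, Rpl13, Rpl21, Rpl22, Rpl30, Rps3a, Rps4x, Rps6, Rps27a and Rpsa.

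Genes related to the ribosome were read from lists drawn up with earlier results known. Of 8 tested related genes outside the naming rule (paralogs, a fusion gene and a scaffold) 4 fell to IP_RNase and 0 rose, where 5.09% of all genes were called lower. Among them were Fau, which encodes the small subunit protein eS30 fused to a ubiquitin-like protein, at -2.44 ± 0.14, and the 40S scaffold Rack1 at -1.55 ± 0.10. Rpl3l, the striated muscle counterpart of Rpl3, fell by 0.54 ± 0.11, while Rpl3 itself stood at -2.36. In the comparisons of IP_RNase_ProK and mitoplast_RNase with the same crude libraries 3 and 3 of these 8 genes fell, where 5.04% and 4.54% of all genes did. They were Fau, Rack1 and the paralog Rpl3l in both. Rpl7l1, which fell to IP_RNase, did not pass in either. Of 6 further tested like-copies, looked up after values were seen, 0 passed to IP_RNase or mitoplast_RNase. To IP_RNase_ProK Rplp0l1 rose, where 385 of all 26483 genes tested were called higher. Rplp0l1 held 25, 22 and 26 counts in the crude libraries and 70, 46 and 49 after proteinase K, at 0.84 ± 0.22 (edgeR adjusted p = 0.0084). Of 4 tested rows of named pseudogenes 1 fell to IP_RNase, beside the same 5.09% of all genes, Rps27a-ps1 at -1.24 ± 0.38 (edgeR adjusted p = 0.0368).

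Of 15 tested genes for translation factors and other TOP messages 13 fell and 0 rose, with a median of -0.81, where 5.09% of all genes were called lower. Those with the smallest p in edgeR were elongation factor Eef2 at -3.06 ± 0.08, the TOP message Tpt1 at -3.39 ± 0.10 and the poly(A)-binding protein Pabpc1 at -2.17 ± 0.11. Eef1a1, elongation factor 1A, had 2.54 CPM in IP_RNase and 2.51 in crude_RNase and did not pass. That is near the level of the weakly counted Rpl35a row (1.34 to 3.36 CPM in crude_RNase), so little can be said of this message. Of 33 ribosome biogenesis genes 4 fell and 0 rose, with a median of -0.07, among them the nucleolar protein Ncl at -1.07 ± 0.10, the rRNA transcription factor Ubtf at -0.33 ± 0.09 and the rRNA processing factor Rrp1 at -0.31 ± 0.09. Of 72 tested mitochondrial ribosomal protein rows 4 fell and 0 rose, a share near the 5.09% of all genes called lower, with a median of -0.15. Those with the smallest p were Mrps21 at -0.82 ± 0.20, Mrpl54 at -0.59 ± 0.18 and Mrps25 at -0.50 ± 0.15. To IP_RNase_ProK 13 TOP, 1 biogenesis and 8 mitochondrial ribosomal rows fell, where 5.04% of all genes were called lower. To mitoplast_RNase 13, 1 and 6 fell, where 4.54% of all genes were called lower, against the same crude libraries. To IP_RNase 56 of the 72 mitochondrial ribosomal rows had a negative log2 fold change, beside 12908 of all 26483 genes tested. The medians to IP_RNase stand beside -1.69 for the cytosolic set and 0.01 for all genes on TMM scaling.

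Under other scalings these lists followed the shift of all genes. By library size alone 94.7% of all genes were called higher and 0.714% lower. There 5 TOP genes were lower and 6 higher, and 0 biogenesis genes were lower and 32 higher. Of the mitochondrial ribosomal rows 0 were lower and 70 higher. Of the 8 related genes outside the naming rule 2 were lower and 6 higher. On the olfactory receptor genes, where 16.9% of all genes were called lower, 14 TOP, 9 biogenesis, 24 mitochondrial ribosomal and 5 of these related rows were lower. On the mitochondrial mRNAs, where 99.8% of all genes were called higher, 0 genes of these lists were lower.

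A pyrimidine start was more frequent in the member windows than in the whole table. Of 55 member windows 52.7% had C at the start, against 24.1% of all 33469 promoters. A run of at least 4 pyrimidines that began with C at the start was found in 40.0% of member windows, 4.37% of all promoters and 4.62% of those of mitochondrial ribosomal proteins. Of the 15 windows of the TOP list 40.0% had C at the start and 6.67% such a run. A pyrimidine run of at least 8 anywhere in the 30 bases, a length chosen after the sequences were seen, was in 65.5% of member windows, 60.0% of the TOP list and 11.4% of all promoters. The letters CTTTCC, searched on both strands of the 30 bases after the sequences had been seen, occurred in 25.5% of member windows and in 2.52% of all windows of the same length. In Rpl19 and Rplp1 they lie inside the run in capitals above, and in Rpsa before the start. A match describes the letters only. Among members that passed, the median log2 fold change was -1.82 in the 27 windows with C at the start and -1.73 in the 25 without.

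Markers of muscle and of other cells were counted beside the ribosomal protein messages. Beside 5.09% of all genes called lower, 7 of 8 fibroblast markers fell to IP_RNase, and their summed level ran from 1968 to 2117 CPM in the crude libraries against 525 to 573 elsewhere. All 10 muscle markers that could be tested fell, from a sum of 7587 to 20897 CPM in crude_RNase to 1884 to 3545 in the others. Of 6 macrophage and leukocyte markers 3 fell (335 to 358 against 286 to 314 CPM), of 4 erythroid 1 (153 to 175 against 133 to 151) and of 5 satellite cell markers 1 (173 to 186 against 152 to 168). Of 6 endothelial markers 0 passed in edgeR, 0 with an unadjusted p under 0.05 (461 to 482 against 435 to 476 CPM). No marker found in the table was at 0 in any preparation. Scaled on the mitochondrial mRNAs, where 99.8% of all genes were called higher, 0 of the 8 fibroblast markers were lower and 7 higher, and of the 10 muscle markers 2 were lower and 4 higher. By library size 5 fibroblast markers were lower and 3 higher, and 9 muscle markers lower and 1 higher, while all 6 macrophage and leukocyte, 4 erythroid, 5 satellite cell and 6 endothelial markers were higher, as were 94.7% of all genes. The part of these cells in the change of the ribosomal protein messages was not tested.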

How the data were processed

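The authors deposited 1 table of raw read counts by Ensembl gene for 12 libraries of 4 preparations, with no normalisation. Per the submitters' processing notes, FastQC 0.74, cutadapt 4.6, STAR 2.7.11a, HTSeq and mRatBN7.2 were used. The table had 0 columns of other samples. The annotation release, the strand setting and the handling of multiply matched reads were not given in the sources used here.

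Counts of 26483 genes that passed filterByExpr (minimum count 10) were tested with edgeR 4.0.16 (quasi-likelihood F test, TMM factors of 0.525 to 0.679 in crude_RNase and 1.12 to 1.23 elsewhere) in R 4.3.3, in 1 model of 4 groups over 12 libraries, with Benjamini-Hochberg adjustment over all genes and a threshold of 0.05. The SE is the absolute log2 fold change divided by the square root of F. The method was tested on simulated data with changes of log2 2 and log2 1 in both directions. It recovered every change of log2 2 but missed part of those of log2 1, mainly among lowered genes. The pass mark for recall was lowered after this was seen, so a count of 0 does not exclude changes of log2 1 or less. Alternatives were DESeq2 1.42.0, 3 other scalings, 2 other filters, the replicate number as a block, the 2 groups alone and leaving out each library. Values in every library are given for Rplp0, Rplp1, Rplp2, Rpsa, Rps4x, the 3 highest mean CPM, and the 6 lowest and 4 highest fold changes to IP_RNase. The named members of each related list are those of smallest p, and Rpl7l1 and Eef1a1 are named besides. Members, lists and rules were chosen with earlier results of these data known. Intervals come from SciPy 1.17.1 and figures from matplotlib 3.10.9. Sequences and copy names come from RefSeq tables of GRCr8, which matched all 68 symbols by name. Intervals cover counting error only, since PCR copies are not independent molecules. Between libraries of a group the chi-square per degree of freedom was 1.24 to 12.1 over all genes and 0.724 to 3.03 over members, and none was taken as a repeat of another. The list counts under other scalings and the ratio without each row were added after seeing the data, as was the search for CTTTCC. Values of single members that could not be printed are not reported here, though all 95 rows enter the counts and medians.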

Additional observations from a re-analysis of the deposited data

How the results depend on the processing

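The direction of the ribosomal protein genes depended on the scaling. Values follow the order IP_RNase, IP_RNase_ProK and mitoplast_RNase, each minus crude_RNase. Median log2 fold changes were -0.65, -0.45 and -0.46 by library size alone, -1.90, -1.66 and -1.64 on olfactory receptor genes and 2.14, 3.42 and 3.41 on mitochondrial mRNAs. Minus the median of all genes they were -1.68, -1.54 and -1.53 by library size and -1.69, -1.54 and -1.54 on olfactory receptor genes. On mitochondrial mRNAs these distances were -1.68, -1.53 and -1.52. Rows called lower numbered 46, 42 and 42 by library size, where 189, 186 and 179 of all 26483 genes tested were. On mitochondrial mRNAs they numbered 0, 0 and 0, where 14, 13 and 9 of all genes were called lower. With no filter on low counts the medians were -1.35, -1.43 and -1.32, and the large minus the small subunit median was 0.42, 0.30 and 0.34. That setting takes in all 95 rows, the weakly counted further rows among them. It called 67, 68 and 68 of them lower, beside 1345, 1327 and 1178 of all genes. With a minimum count of 50, which leaves 63 rows, the medians were -1.76, -1.72 and -1.70. DESeq2 kept 66, 65 and 66 of the rows called by edgeR, and called 1007, 969 and 914 of all genes lower. The replicate number as a block gave 66 rows lower in each comparison and medians of -1.69, -1.54 and -1.53. With it 1314, 1307 and 1167 of all genes were called lower. Same-numbered libraries of different groups had correlations of deviations from -0.10 to 0.07 (18 pairs), so the numbers were not taken to pair them.

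Between captured preparations the median of IP_RNase_ProK minus IP_RNase moved to 0.11 (library size), 0.15 (olfactory receptor genes) and 1.22 (mitochondrial mRNAs, with 72 rows called). For mitoplast_RNase minus IP_RNase it was 0.17 on olfactory receptor genes and 1.21 on mitochondrial mRNAs (70 called). Leaving out each of the 12 libraries in turn gave 0 called rows there.

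Of the named rows from crude_RNase to IP_RNase, scaling on mitochondrial mRNAs turned Rplp0 to 0.68, Rplp1 to 1.30, Rplp2 to 0.83, Rpsa to 1.42, Rpl3 to 1.51, Rpl7a to 2.48, Rpl19 to 1.02, Rpl4 to 1.09 and Rpl5 to 1.05. The further rows of Rps6 and Rpl22 stood at 3.59 and 3.73 there, and at 0.86 and 1.00 by library size.

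Leaving out each library in turn, the medians ranged from -1.71 to -1.58, from -1.58 to -1.50 and from -1.60 to -1.47, with 66 to 67, 65 to 66 and 66 to 66 rows lower. The value of -1.58 came without crude_RNase 2. The large minus the small subunit median ranged from 0.13 to 0.26, from 0.0038 to 0.14 and from 0.0099 to 0.22, the last without mitoplast_RNase 1, against 0.18, 0.08 and 0.04 with all libraries. As a share of nuclear counts alone the members took 0.493%, 0.151%, 0.158% and 0.158% in crude_RNase, IP_RNase, IP_RNase_ProK and mitoplast_RNase. The causes of these shifts were not tested. Further rows with few counts limit what can be said of single copies, and 1 animal limits the whole.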
